A study of Mus musculus with 4 samples.

Results

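Exhaustion regulators and inhibitory receptors of T cells were examined for the histone modification H3K9me3, trimethylated lysine 9 of histone H3, which marks silenced chromatin, in cultured mouse CD8+ T cells with and without the methyltransferase gene Suv39h1. The 10 genes were listed by name, with earlier results of these data known: the transcription regulators Tox and Tox2, the ectoenzyme gene Entpd1, and the receptor genes Btla, Pdcd1, Havcr2, Lag3, Tigit, Ctla4 and Cd160. They are 10 of 21774 protein-coding genes, and every H3K9me3 island within 100 kb of each was taken from the deposited lists. An island is a stretch of the genome that the authors' caller reported as enriched in 1 library.

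The cells came from Suv39h1-KO mice and from wild-type (WT) mice on a C57BL/6 background. All were kept in culture for 3 days with antibodies to CD3 and CD28, which stimulate the T cell receptor and a costimulatory receptor, and with interleukin-2. Each genotype had 1 H3K9me3 chromatin immunoprecipitation library and 1 input library, and the inputs were not analysed here. The labels do not give the Suv39h1 allele, the age or number of mice, or whether cells were pooled. With 1 library per genotype, the values have no replicate error and no test was made between genotypes. They compare these libraries only, and a locus with no island in a list may still carry the mark below the level that was called.

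The KO list held 25424 islands with 10020253 reads and the WT list 12371 islands with 5547695 reads. Median island length was 9 kb in KO and 10 kb in WT, and median density 40.1 reads per kb in KO and 40.4 reads per kb in WT. The island lists cannot show whether Suv39h1 was lost, nor the cell type. Of 9 T cell genes (Cd3e, Cd3d, Cd3g, Cd8a, Cd8b1, Cd2, Lck, Zap70 and Thy1), 0 had an island over the gene body in KO and 0 in WT, and 0 had one within 100 kb in KO and 2 (Cd2 and Thy1) in WT. Over all protein-coding genes, 12.3% had an island over the body in KO and 12.4% in WT, and 40.4% and 48.9% had one within 100 kb. The windows of Cd3e, Cd3d and Cd3g overlap, as do those of Cd8a and Cd8b1, so the 9 genes are not separate loci.

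T cells that meet antigen for a long time enter a state called exhaustion, in which they hold several inhibitory receptors on their surface and lose effector function. TOX and TOX2 are transcription regulators that take part in setting up this state. The receptors PD-1 (Pdcd1), CTLA-4 (Ctla4), TIM-3 (Havcr2), LAG-3 (Lag3), TIGIT (Tigit), BTLA (Btla) and CD160 (Cd160) bind ligands on other cells and restrain T cell activation, and many of them are also induced briefly when a T cell is first activated. CD39 (Entpd1) degrades extracellular ATP. SUV39H1 places H3K9me3 on nucleosomes, where the mark is bound by HP1 proteins and holds chromatin in a compact, silent form.

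Fewer H3K9me3 islands were listed near these genes in KO than in WT, but the order of the gene counts did not hold at every cut described below. Within 100 kb of the 10 genes there were 3 islands in KO and 8 in WT, covering 19 kb in KO and 72.5 kb in WT of windows that sum to 2710 kb. This is 0.701% of the windows in KO and 2.68% in WT. The mean number of islands per window was 0.3 in KO and 0.8 in WT. Over all protein-coding genes it was 1.36 in KO and 1.07 in WT. An island lay within 100 kb of 3 genes in KO (Tox, Btla and Tigit) and of 5 in WT (Tox, Btla, Entpd1, Lag3 and Cd160). Over all protein-coding genes the same was found for 40.4% in KO and 48.9% in WT, so both counts lay near or below the background. By genotype, 1 gene (Tigit) had an island in KO alone, against 8.08% of all genes, and 3 (Entpd1, Lag3 and Cd160) had one in WT alone, against 16.6% of all genes. Islands of both lists were near Tox and Btla, and near 32.3% of all genes. Tox2, Pdcd1, Havcr2 and Ctla4 had none in either list, as did 43% of all genes.

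**Figure D1:**
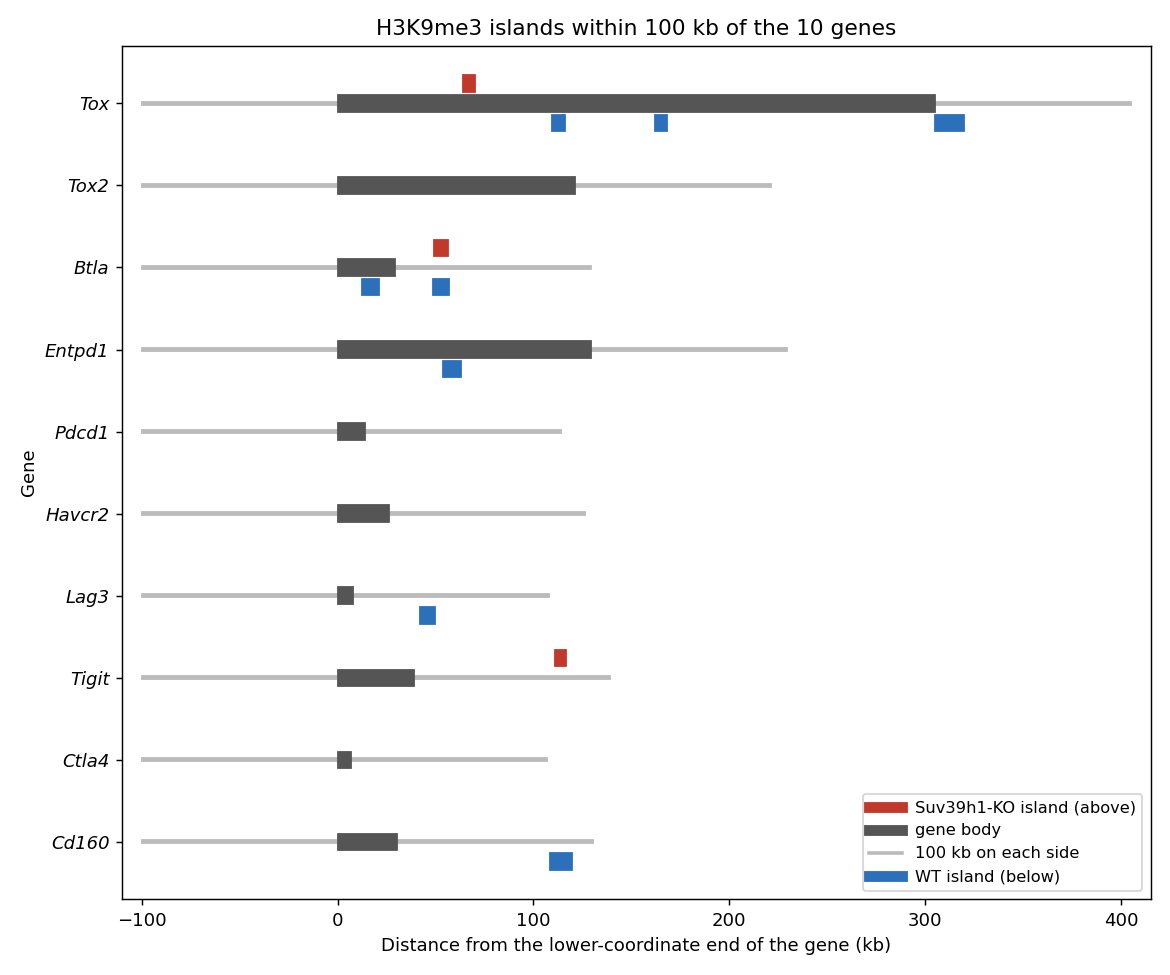
Each row is 1 of the 10 genes, with the gene body in dark grey, 100 kb on each side in light grey, Suv39h1-KO islands in red above and WT islands in blue below. The x axis is the distance in kb from the lower-coordinate end of the gene. The 3 KO islands and 8 WT islands coincide at 1 place, beyond the higher-coordinate end of Btla.

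Over the gene bodies alone, 1 gene had an island in KO (Tox) and 3 in WT (Tox, Btla and Entpd1). The background was 12.3% of protein-coding genes in KO and 12.4% in WT. In WT alone the count was 2 of 10, against 5.64% of all genes, and in KO alone it was 0 of 10, against 5.54%. Tox had islands of both lists over its body, as 6.78% of all genes did, and 7 genes had none, as 82% of all genes did. Long genes carry islands more often. Among genes of 100 kb or more, 43.9% had an island over the body in KO and 43.4% in WT, and Tox, Tox2 and Entpd1 are genes of this size. Of these 3 long members, 1 had an island over its body in KO and 2 in WT. Of the 7 shorter members, 0 had one in KO and 1 (Btla) in WT, beside 8.36% of shorter genes in KO and 8.54% in WT.

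**Figure D2:**
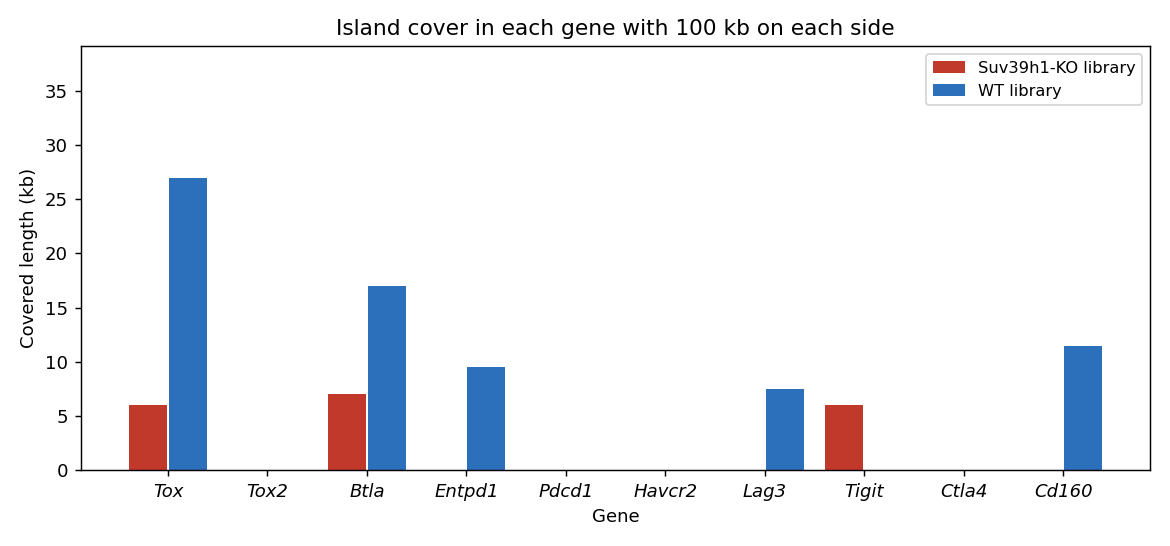
Bars give the length in kb covered by islands in each gene with 100 kb on each side, in the Suv39h1-KO library (red, left) and the WT library (blue, right). Cover was longer in WT at Tox, Btla, Entpd1, Lag3 and Cd160, longer in KO at Tigit, and 0 in both at Tox2, Pdcd1, Havcr2 and Ctla4.

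Tox (RefSeq gene ID 252838, chr4:6686353-6991557, mm10) is the longest of the genes at 305 kb and had the most islands. In KO, 1 island at chr4:6750501-6756500 held 258 reads over 6 kb, or 43 reads per kb (95% counting interval 37.9 to 48.6). In WT, islands lay at chr4:6796001-6802500, with 278 reads over 6.5 kb, and at chr4:6848501-6854500, with 281 reads over 6 kb. A further WT island, chr4:6991501-7006000, held 584 reads over 14.5 kb and was the longest of all 11 islands.

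The KO island of Tox overlapped none of the WT ones, and 39.5 kb separated it from the nearest. The 3 islands inside the gene lay 21.0 to 23.0% of the way along it in KO, and 35.9 to 38.1% and 53.1 to 55.1% of the way in WT, counted from the lower-coordinate end. The last WT island covered only the final 57 bp of the annotated gene and ran 14.4 kb beyond it. Tox is known to be read from the minus strand, which would place this island at the start of the gene, but the tables used here give no strand for Tox. The nearest KO island to it was 235 kb away. In the Tox window, islands covered 6 kb in KO and 27 kb in WT, with no other protein-coding gene within 100 kb. Beyond the 100 kb limit, on the lower-coordinate side, islands of the 2 lists did meet. The KO island chr4:6575501-6586000 and the WT island chr4:6573501-6583000 overlapped by 7.5 kb.

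The densest island of Tox was the WT one at chr4:6848501-6854500, with 46.8 reads per kb (41.5 to 52.6). Among the 352 WT islands of exactly its length it stood at percentile 79.5. The KO island stood at percentile 65.5 among 1323 KO islands of its length. The long WT island had 40.3 reads per kb (37.1 to 43.7), and the first WT island 42.8 (37.9 to 48.1). The counting intervals of all 4 islands overlap.

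Tox2 (gene ID 269389, chr2:163203058-163324172), the paralog of Tox, had the emptiest surroundings. The nearest KO island was 446 kb away, at chr2:162745501-162757000, and the nearest WT island was 937 kb away, at chr2:164261501-164270000. No island of either list lay in the 1 Mb around the middle of the gene. Its windows hold the protein-coding neighbours Jph2 and Oser1, which carried 0 kb of islands in KO and 0 kb in WT.

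Btla (gene ID 208154, chr16:45223705-45252895) encodes a receptor of the immunoglobulin superfamily that binds HVEM. It was the only gene of the 10 where islands of the genotypes coincided within 100 kb. The KO island at chr16:45273001-45280000 held 334 reads over 7 kb, and the WT island at chr16:45272501-45280500 held 356 reads over 8 kb. The KO island lay wholly within the WT one, 20.1 kb beyond the higher-coordinate end of the gene, and no annotated gene overlapped it.

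This shared island was dense for its length in both lists. It had 47.7 reads per kb in KO (42.7 to 53.1), at percentile 97.1 of 1504 KO islands of its length, and 44.5 reads per kb in WT (40 to 49.4), at percentile 88.1 of 638 WT islands of its length. The KO to WT ratio of densities was 1.07, without scaling for depth. Across 817 pairs of islands that cover at least 80% of each other, the ratio had a median of 0.988, with 5th and 95th percentiles of 0.860 and 1.13, so the ratio at Btla lay within that range.

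Inside Btla, an island was listed in WT alone, at chr16:45236001-45245000, with 344 reads over 9 kb. Its density of 38.2 reads per kb (34.3 to 42.5) was the lowest of the 11 islands, at percentile 24.0 of all WT islands and 13.5 of the 705 of its length. The nearest KO island was the shared one, 28 kb away. It began 11.7 kb downstream of the annotated start of Btla. The 250 bases upstream of that start (chr16:45224087-45224336, plus strand, RefSeq, GRCm38.p6) lay outside the islands of both lists and are shown because they are the closest Btla promoter sequence to the WT island, with CG dinucleotides in capitals.
Btla: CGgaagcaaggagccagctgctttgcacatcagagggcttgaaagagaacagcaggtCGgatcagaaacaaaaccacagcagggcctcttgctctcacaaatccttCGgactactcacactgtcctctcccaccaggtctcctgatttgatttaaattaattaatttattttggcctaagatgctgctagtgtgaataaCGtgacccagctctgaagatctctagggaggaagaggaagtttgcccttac

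Entpd1 (gene ID 12495, chr19:40612366-40741602) had 1 island within 100 kb, in WT alone. It lay inside the gene at chr19:40666001-40675500 and held 378 reads over 9.5 kb, or 39.8 reads per kb (35.9 to 44), at percentile 47.3 of 704 WT islands of its length. The nearest KO island to the gene was 164 kb away, at chr19:40906001-40912000. The table lists 2 starts for Entpd1, and the WT island lay 6.23 kb downstream of the second and 53.6 kb downstream of the first. Among the 14 starts that the table lists for 8 of the 10 genes, the second start of Entpd1 is the closest to an island. The 250 bases before each start are shown because the island falls downstream of both, first chr19:40612116-40612365 and then chr19:40659520-40659769, plus strand, with CG dinucleotides in capitals. The first stretch reaches into the neighbouring gene Tctn3.
Entpd1 first start: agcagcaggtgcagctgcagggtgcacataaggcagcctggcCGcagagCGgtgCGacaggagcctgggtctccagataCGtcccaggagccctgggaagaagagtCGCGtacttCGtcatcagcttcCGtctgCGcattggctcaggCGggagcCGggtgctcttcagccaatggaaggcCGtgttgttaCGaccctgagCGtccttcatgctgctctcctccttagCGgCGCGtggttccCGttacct
Entpd1 second start: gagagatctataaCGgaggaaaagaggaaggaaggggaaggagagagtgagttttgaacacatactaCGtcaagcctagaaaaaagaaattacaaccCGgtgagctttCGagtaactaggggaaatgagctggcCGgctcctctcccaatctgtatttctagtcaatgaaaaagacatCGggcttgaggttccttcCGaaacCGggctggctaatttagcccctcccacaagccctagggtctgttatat
The first stretch holds 18 CG dinucleotides and the second 8.

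Pdcd1 (gene ID 18566, chr1:94038305-94052553), which encodes PD-1, had no island within 100 kb in either library, but lay just outside that limit. The nearest KO island, chr1:94159501-94168000, was 107 kb away with 348 reads over 8.5 kb. The nearest WT island, chr1:94172501-94177000, was 120 kb away with 228 reads over 4.5 kb. These islands did not overlap. In the 1 Mb around Pdcd1, KO had 11 islands over 90.5 kb and WT 8 islands over 72.4 kb, and 3 islands of each list met one of the other. All 11 KO islands lay at higher coordinates than the gene. The promoter of Pdcd1 is shown as that of the best known exhaustion marker, free of islands in both libraries (250 bases before the start, chr1:94052554-94052803, minus strand, CG dinucleotides in capitals).
Pdcd1: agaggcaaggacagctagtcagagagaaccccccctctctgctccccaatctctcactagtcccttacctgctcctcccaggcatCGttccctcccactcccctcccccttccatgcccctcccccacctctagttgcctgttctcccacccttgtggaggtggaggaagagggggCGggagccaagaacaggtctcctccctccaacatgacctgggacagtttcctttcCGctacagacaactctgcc

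Havcr2 (gene ID 171285, chr11:46454931-46481255) and Ctla4 (gene ID 12477, chr1:60909025-60915832) also had no island within 100 kb. For Havcr2, the gene of TIM-3, the nearest KO island was 169 kb away and the nearest WT island 230 kb away. For Ctla4, which encodes a competitor of CD28 for CD80 and CD86, the nearest islands were 233 kb away in KO and 231 kb away in WT, and they overlapped. The KO island at chr1:61149001-61156000 lay inside the WT island at chr1:61147001-61158000. The costimulatory gene Icos lies beside Ctla4 and carried no island in either list.

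Ctla4 showed the widest difference in the surrounding 1 Mb. KO had 3 islands over 21.5 kb there and WT 9 islands over 108.5 kb, and 3 WT islands met the 3 KO islands. The longest WT island of this stretch, chr1:61244501-61273000, held 1094 reads over 28.5 kb. In KO, 6 kb of it was covered.

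Lag3 (gene ID 16768, chr6:124904359-124912434), a receptor related to CD4, lies in the most gene-dense window of the 10, with 13 other protein-coding genes within 100 kb. A WT island at chr6:124946501-124954000 lay 34.1 kb from the gene, with 309 reads over 7.5 kb, or 41.2 reads per kb (36.7 to 46.1). It overlapped no annotated gene, and the nearest protein-coding gene, Cops7a, was 4.45 kb away. No KO island lay within 100 kb, and the nearest was 297 kb away.

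Tigit (gene ID 100043314, chr16:43626137-43665125) encodes a receptor for CD155 and was the only gene of the 10 with an island within 100 kb in KO alone. That island, chr16:43737001-43743000, lay 71.9 kb from the gene with 246 reads over 6 kb, or 41 reads per kb (36 to 46.5), at percentile 31.9 of 1323 KO islands of its length. It overlapped no annotated gene, and the nearest protein-coding gene, the dopamine receptor gene Drd3, was 11 kb away. The nearest WT island to Tigit was 448 kb away. Zbtb20, a transcription factor gene whose end overlaps Tigit, carried 33.5 kb of islands in KO and 55 kb in WT, none of them within 100 kb of Tigit.

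Cd160 (gene ID 54215, chr3:96798763-96829351), another receptor for HVEM, had a WT island 77.7 kb away. It held 450 reads over 11.5 kb, or 39.1 reads per kb (35.6 to 42.9), at percentile 56.5 of 552 WT islands of its length. No KO island lay within 100 kb, but one at chr3:96940501-96945000 lay 111 kb from Cd160 and 22 kb from this WT island.

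The 11 islands lay inside the range of their lists, and most were shorter than the median island. Lengths were 6 to 7 kb in KO and 6 to 14.5 kb in WT. Densities were 41 to 47.7 reads per kb in KO and 38.2 to 46.8 in WT. All 3 KO islands and 4 of 8 WT islands were above the median density of their list, and 0 KO and 2 WT islands were above its median length. Ranks by density depended on the islands compared. The KO island of Tox, of 6 kb, stood at percentile 77.9 of all KO islands and 65.5 of those of its length. The WT island of 14.5 kb at Tox stood at 48.6 of all WT islands and 69.7 of those of its length.

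**Figure D3:**
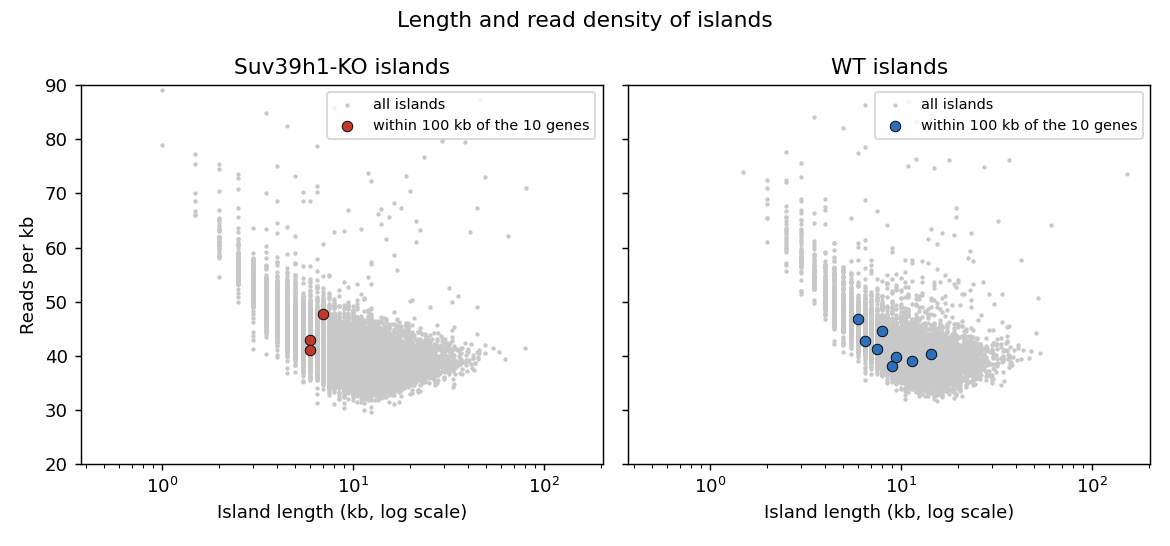
Each grey point is 1 island of the Suv39h1-KO list (left) or the WT list (right), by length in kb on a log scale and reads per kb; 32 KO and 18 WT islands above 90 reads per kb are not drawn. Coloured points, the 3 KO and 8 WT islands within 100 kb of the genes, lie inside the grey cloud, between 38.2 and 47.7 reads per kb.

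Overlap between the genotypes was found for 1 of 3 KO islands (33.3%, exact 95% interval 0.840 to 90.6) and 1 of 8 WT islands (12.5%, 0.316 to 52.7). Over all islands it was 24.9% in KO and 48% in WT, and the intervals, which cover counting of islands only, include these values. In the 1 Mb around the middle of each gene, an extent chosen after the lists were seen, there were 32 KO islands over 281 kb and 37 WT islands over 413 kb. Of these, 12 KO islands (37.5%, 21.1 to 56.3) and 12 WT islands (32.4%, 18.0 to 49.8) met one of the other list.

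**Figure D4:**
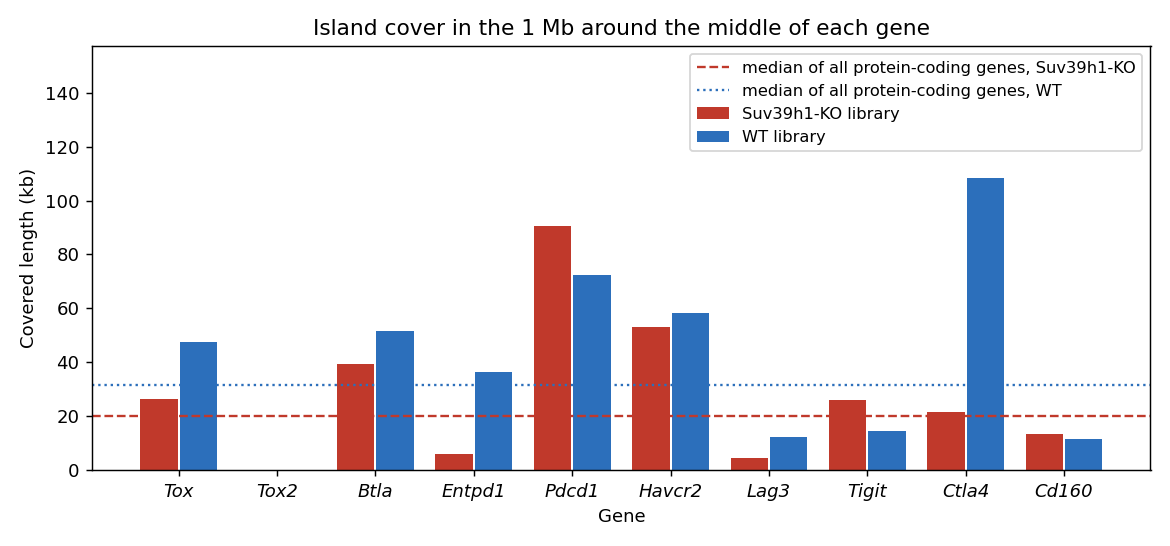
Bars give the length in kb covered by islands in the 1 Mb around the middle of each gene, Suv39h1-KO in red on the left and WT in blue on the right. Horizontal lines give the medians of all protein-coding genes, 20 kb in KO (dashed) and 31.5 kb in WT (dotted). Cover was longer in KO at Pdcd1, Tigit and Cd160 and longer in WT at 6 genes, and Tox2 had none.

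Median cover of the 10 genes was 23.8 kb in KO and 42.0 kb in WT, against 20 kb and 31.5 kb over all protein-coding genes in KO and in WT. Mean cover was 28.1 kb in KO and 41.3 kb in WT for the 10 genes, and 57.0 kb in KO and 47.1 kb in WT for all genes, so medians place the 10 genes above all genes and means place them below. KO cover was the longer at 3 genes and WT cover at 6. Over all protein-coding genes, KO cover was the longer at 35.5% and WT cover at 50.5%. Within 100 kb, KO cover was the longer at 1 gene and WT cover at 5, against 22.8% and 33.6% of all genes. The median share of the window covered was 0% in KO and 1.44% in WT for the 10 genes, and 0% in each for all genes. The mean share was 0.675% in KO and 2.42% in WT for the 10 genes, and 4.69% in KO and 4.42% in WT for all genes.

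The count of genes with an island depended on the distance allowed. Within 50 kb it was 2 in KO and 4 in WT, against 30.0% and 35.4% of all genes in KO and in WT. Within 200 kb it was 7 in KO and 6 in WT, against 54.3% and 65.0%, so the order of the gene counts turned round. The order of islands and of cover did not, with 9 islands over 66 kb in KO and 11 over 99.5 kb in WT. The genes gained at that distance were Pdcd1, Cd160, Entpd1 and Havcr2 in KO, with nearest islands at 107 to 169 kb. In WT the gene gained was Pdcd1, with its nearest island at 120 kb. Further islands also enter, near Tox in both lists, near Tigit in KO and near Pdcd1 in WT. Counting only islands above the median density of their list, 3 genes had an island within 100 kb in KO (Tox, Btla and Tigit) and 3 in WT (Tox, Btla and Lag3), against 32% of all genes in KO and 36% in WT.

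**Figure D5:**
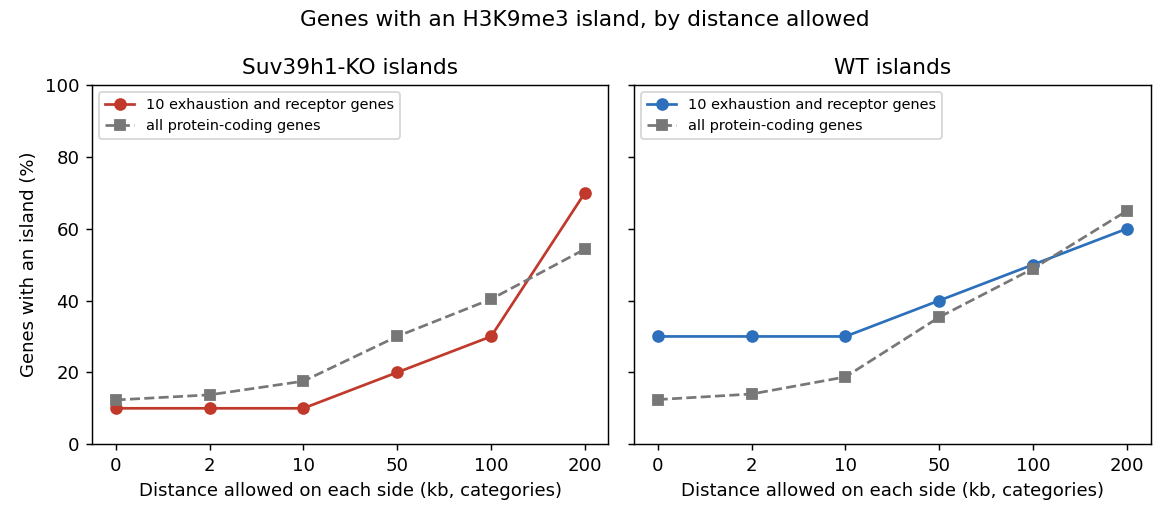
The y axis is the percentage of genes with at least 1 island within the distance on the x axis (0 to 200 kb, drawn as categories), for Suv39h1-KO islands (left) and WT islands (right). Coloured lines are the 10 genes and grey dashed lines all 21774 protein-coding genes. Within 100 kb, 3 genes had an island in KO and 5 in WT, and within 200 kb 7 in KO and 6 in WT.

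RefSeq promoter sequences matched 8 of the 10 genes, with 14 starts, and the entries for Tox and Lag3 were missing. None of these promoters (250 bases before to 50 after the start) overlapped an island in KO or in WT, against 3.67% of 32851 promoters in KO and 3% in WT, shares at which none among 14 is near the background. Among these 14 starts, the closest KO island was the shared one at Btla, 48.7 kb away, and the closest WT island lay 6.23 kb from the second start of Entpd1. The long WT island across the end of Tox is not part of this count. The dinucleotide CG, searched in the 250 bases before the start, numbered 2 (Havcr2) to 35 (a start of Tox2). Over all promoters the median was 6, with quartiles of 2 and 16, and 7.87% had none. Pdcd1 had 3, Btla 4, Tigit and each start of Cd160 5, and Ctla4 7.

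Genes that act with these receptors were described by the same measure, against 12.3% of all genes over the body and 40.4% within 100 kb in KO, and 12.4% and 48.9% in WT. Of 17 other inhibitory receptor genes, 0 had an island over the body in KO and 0 in WT, and 5 had one within 100 kb in KO and 7 in WT, near or below those shares. Of 22 exhaustion transcription regulators, 3 had an island over the body in KO and 4 in WT. Overlapping islands lay over Bach2, which restrains effector differentiation (10.5 kb in KO, 12 kb in WT), and over Ikzf2, the gene of Helios (5 kb in KO, 5 kb in WT). Over its body, Tox3, another paralog of Tox, had 15.5 kb in KO and 0 kb in WT, and Prdm1, the gene of BLIMP-1, 0 kb in KO and 6.5 kb in WT. With 100 kb on each side both genes had cover in both lists. It was 43.5 kb in KO and 11 kb in WT for Tox3, and 15 kb in KO and 29.5 kb in WT for Prdm1. Within 100 kb, 6 of these regulators had an island in KO and 11 in WT, the WT count being close to the share over all genes.

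Among 13 ligand genes of the receptors, 2 had an island over the body in KO and 2 in WT, and 7 had one within 100 kb in KO and 6 in WT. The windows of Cd274 and Pdcd1lg2 overlap, and each had 7.5 kb of KO cover, with 0 kb and 11 kb in WT. Some windows also overlap among the other inhibitory and the costimulatory receptors, so genes in these lists are not all separate loci. Cd86, a ligand of CTLA-4 and CD28, had 1 KO island over 7 kb and 4 WT islands over 55 kb, one of which contained the KO island. Nectin3, reported in human as a ligand of TIGIT, carried 37 kb in 4 KO islands and 0 kb in WT over its body. Fgl1, a ligand of LAG-3, had 0 kb in KO and 15.5 kb in WT over its body. With 100 kb on each side, cover was 84.5 kb in KO and 42 kb in WT for Nectin3, and 15.5 kb in KO and 22 kb in WT for Fgl1. Of 11 costimulatory receptor genes, 0 had an island over the body in KO and 1 in WT, and 2 had one within 100 kb in KO and 4 in WT. The gene with WT cover over its body was Cd226, the activating counterpart of TIGIT, with 19.2 kb.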

How the data were processed

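H3K9me3 was measured by ChIP-seq in 1 KO and 1 WT library of cultured CD8+ T cells. Per the submitters' processing notes, Bowtie2, SICER 1.1 and mm10 were used. The sources used here do not state SICER's window, gap and threshold, how duplicates were handled, or whether the inputs entered the calling. The deposited lists give a whole-number count per island with no header, read here as ChIP reads. The authors' counts are not scaled to depth or input, and whole-library depth is unknown here. Coordinates lie on a 500 bp grid and were converted to positions counted from 1. Genes came from RefSeq GRCm38.p6, without 348 genes on scaffolds, recognised by table order. Distances run from the gene body, and 1 bp of overlap was enough.

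Counting intervals are exact (Poisson for reads, Clopper-Pearson for shares, 95%). They cover counting error only, since reads without molecular identifiers are not independent molecules. No test between genotypes was made. Interval code was tested on simulated data (Python 3.11.15, pandas 2.3.3, scipy 1.17.1). The genes and lists were chosen with earlier results of these data known. All 10 genes are named, with the 9 T cell genes, and from every other list up to 4 genes with the longest cover over the body. Cd274 and Pdcd1lg2 are named besides, for their overlapping windows. Alternatives were denser islands, a minimum length, equal list sizes, merging, and other distances and overlap rules. The annotation of 1 island near Cd160 is not reported here.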

Additional observations from a re-analysis of the deposited data

How the results depend on the processing

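No paired analysis was possible because only 1 H3K9me3 library was made per genotype. Counts and lengths within 1.5 times of the reported value, and shares within their exact interval, were taken as unmoved. The share intervals are wide, 0.840 to 90.6% in KO and 0.316 to 52.7% in WT, so a share could change much and count as unmoved. With islands above the median density, the WT share was 25% (1 of 4), against 12.5% (1 of 8), and counted as unmoved. Many values could not move. Genes with no island stay at 0 under a filter or merging. The shortest of the 11 islands is 6 kb, above a minimum of 2 kb. Where the KO list is reduced, the WT list is untouched. The 3 KO islands, at density percentiles of 60.5 to 94.3 in their list, are dense enough to be kept there. Values stayed unmoved, in this sense, with islands of at least 2 kb, with the KO list reduced to the WT number by density, with islands under 5 kb apart merged, within 50 kb, with 2 or 10 kb around gene bodies, or with other overlap rules.

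Within 200 kb, KO islands lay near 7 genes, as 9 islands covering 66 kb. The WT values there, 6 genes and 11 islands covering 99.5 kb, counted as unmoved. With islands above the median density of their list, WT islands lay near 3 genes and over the body of 1, as 4 islands covering 28 kb. WT cover in the windows then became 12.5 kb at Tox, 8 kb at Btla, 0 kb at Entpd1 and 0 kb at Cd160. The KO values kept all 3 islands in that setting, so the genes with an island within 100 kb became 3 in KO and 3 in WT. Whole-library depth is unknown here, and loci outside the called islands have no value in either list, so they cannot be compared.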
